A study of Mus musculus with 6 samples.

Results

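The constitutive 26S proteasome, its core assembly chaperones and the transcription factor NRF1 are described here as 36 genes in brain endothelial cells exposed to dolutegravir (DTG). The genes were chosen by name. They are 7 α-ring subunits (Psma1 to Psma7), 7 β-ring subunits (Psmb1 to Psmb7), 6 ATPases (Psmc1 to Psmc6), 3 non-ATPase subunits of the base (Psmd1, Psmd2, Psmd4), 8 lid subunits (Psmd3, Psmd6, Psmd7, Psmd8, Psmd11, Psmd12, Psmd13, Psmd14), 4 chaperones of core assembly (Psmg1, Psmg2, Psmg3, Pomp) and Nfe2l1, which encodes NRF1. All 36 were found among the 43271 gene identifiers of the deposited count table. Primary brain microvascular endothelial cells from wild-type C57BL/6 mice were grown to confluence and received DTG, a drug that blocks the integrase of HIV, at 5000 ng/ml or its DMSO vehicle, both for 24 h. There were 3 RNA-seq libraries per group. The labels do not say whether the libraries came from separate cultures or animals, so p-values measure the spread between these libraries, which may be technical. The cells were confluent monolayers in serum-containing medium on gelatin, and 1 dose and 1 time were used.

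The proteasome degrades proteins that carry ubiquitin. Its barrel-shaped core stacks 2 outer α rings, which gate the entrance, on 2 inner β rings, which hold the proteolytic sites. The regulatory particle caps the barrel: its base unfolds substrates with a ring of ATPases, and its lid removes the ubiquitin chain. Chaperones build the core and leave it or are destroyed once it is complete. NRF1 is made at the endoplasmic reticulum (ER), is normally degraded from there by proteasomes, and, when proteasomes fall short, is processed into an active factor that switches on the proteasome genes. The study asked about ER stress under DTG, and ER-associated degradation hands its substrates to the proteasome.

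The libraries held 51344169 to 56316335 counts with DTG and 41162353 to 55998253 with DMSO. Levels are CPM, that is, counts relative to the library total after TMM scaling, a scaling that sets aside the genes that differ most between libraries, and fold changes are DTG over DMSO. Scaling by total counts alone shifted the median log2 fold change of all 14101 genes tested to −0.18, against −0.01 with TMM, so both scalings are given where they differ. Of the 10 endothelial markers all were detected, with a summed level of 6471 to 6785 CPM with DTG and 8832 to 9288 CPM with DMSO. With TMM scaling 7 of the 10 fell and none rose, where 29.3% of all genes tested fell and 27.4% rose. Cdh5, Esam and Flt1 did not pass. Of the astrocyte markers, 1 of 6 (Aqp4) was at 0 in every library, and Gfap, Aldh1l1, Slc1a2 and Slc1a3 had at most 5 counts in any library. Their sum of 203 to 249 CPM with DTG and 56.5 to 65.3 CPM with DMSO was carried by Gja1 alone. Neuronal markers summed to 2.21 to 6.04 CPM with DTG and 0.177 to 0.322 CPM with DMSO, almost all from Tubb3. Fibroblast markers summed to 7.76 to 8.68 CPM with DTG and 6.52 to 7.50 CPM with DMSO. The pericyte, microglial, oligodendrocyte and epithelial lists each stayed below 2 CPM in sum, with Rgs5, Kcnj8, C1qa, C1qb, P2ry12, Tyrobp, Mog, Olig2 and Epcam at 0 in all 6 libraries. Their part in the proteasome results was not tested. Each library name also carries a P4 or P5 tag that the labels do not define; DTG replicate 1 and DMSO replicates 2 and 3 carry P5. The library names also hold another number that the labels do not define. It is the same for DTG replicates 1 and 2, the same for DMSO replicates 1 and 2, and shared by DTG replicate 3 and DMSO replicate 3. If it marks a shared source, n = 3 counts more independent samples than there were.

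The 36 genes were higher with DTG almost without exception. In edgeR's quasi-likelihood test with Benjamini-Hochberg adjustment over all genes, 35 of 36 rose, none fell, and the lid subunit Psmd8 did not pass. Among all genes tested, 27.4% rose and 29.3% fell (56.7% together), and among the 9258 genes with a mean of at least 10 CPM, 34.5% rose. The median log2 fold change of the 36 genes was 0.47 (1.39-fold), with a range of 0.22 to 0.98. Summed over the 36 genes, the level was 6482, 6776 and 6837 CPM in the DTG libraries and 4671, 4849 and 4400 CPM in the DMSO libraries, or 6698 ± 190.0 CPM with DTG and 4640 ± 226 CPM with DMSO (SD, n = 3 each). As a share of all counts this was 0.620%, 0.632% and 0.642% with DTG and 0.499%, 0.514% and 0.464% with DMSO. With TMM scaling every DTG library lay above every DMSO library in all 36 genes, a separation found in that direction for 31.1% of all genes tested, in the other for 33.1%, and in either for 64.2%. In bulk RNA, more cells that express a gene and more RNA per cell cannot be told apart.

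Library-size scaling kept every direction and lowered the number of genes that passed. Under it, 30 of 36 rose and none fell, against 18.0% of all genes that rose and 40.6% that fell (58.6% together). The 6 that did not pass were Psma5, Psma7, Psmb1, Psmd1, Psmd8 and Psmd13. The median log2 fold change was 0.30 under this scaling. Its distance from the median of all genes was 0.48, and with TMM it was 0.49. A change of scaling shifts all genes by nearly the same amount, so this distance is kept by design and is only a description. With library-size scaling 32 of the 36 genes had every DTG library above every DMSO library, against 20.5% of all genes tested in that direction, and the groups overlapped for Psma5, Psma7, Psmd8 and Psmd13. With the libraries of a group that share the number in their names summed, which leaves 2 samples a group, all 36 genes rose in edgeR's quasi-likelihood test, with a median log2 fold change of 0.51. Within the P4 libraries the median was 0.49, and within the P5 libraries it was 0.46, against −0.034 and 0.0025 for all genes tested. P4 holds 1 DMSO library and P5 holds 1 DTG library. All 36 genes were higher with DTG in both, which follows from the separation with TMM scaling given above. Within the groups, the same libraries were often at the ends: DTG replicate 1 was the lowest of its group for 24 of 36 genes, and DMSO replicate 3 was the lowest of its group for 27. Without DTG replicate 1, 36 genes rose, and without DMSO replicate 3, 35 did. For settings that sum or leave out libraries, the share of all genes that rose is not given, here or below. Counts under any other setting, such as an added model term, therefore show only whether the calls were kept.

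**Figure D1:**
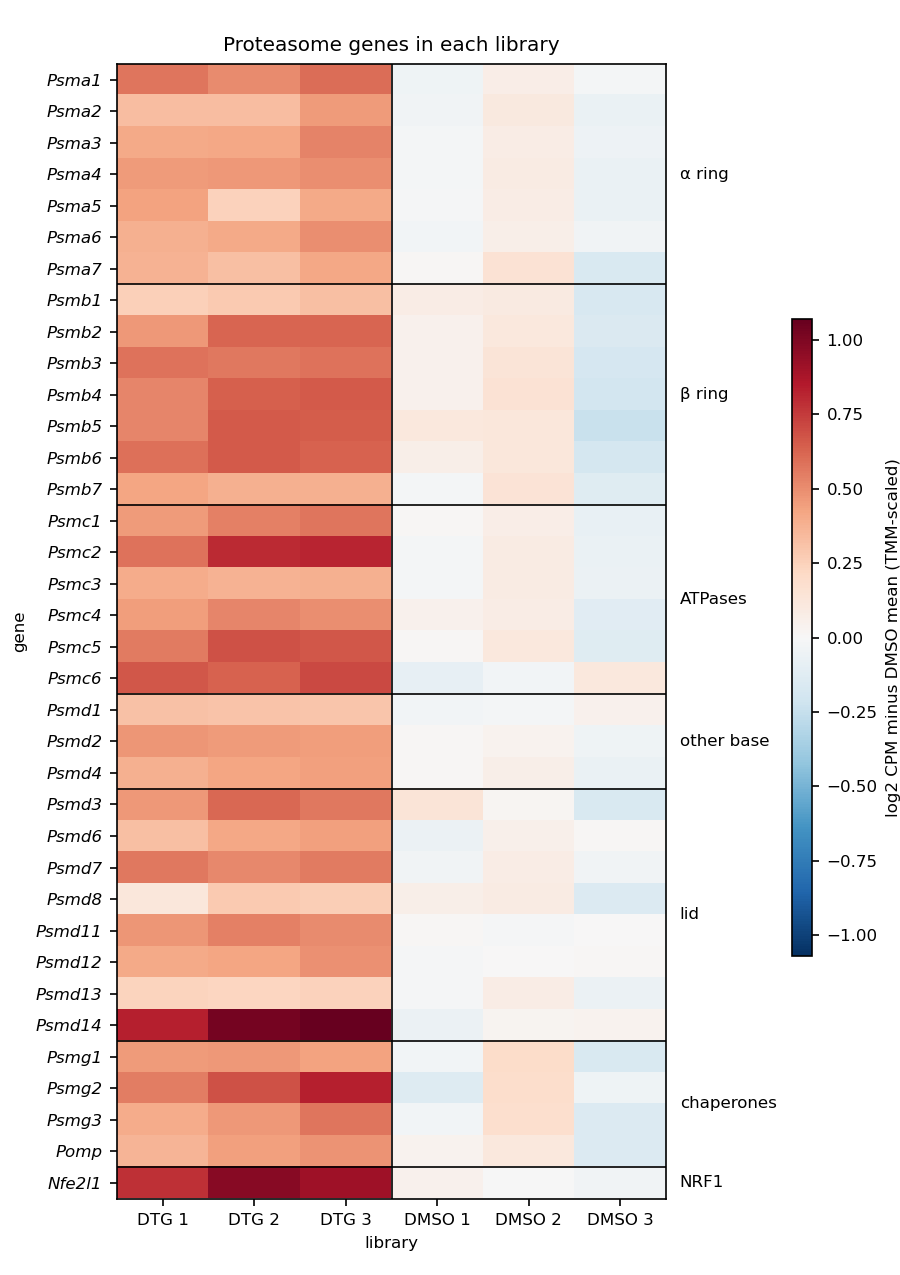
Colour gives the level of each of the 36 genes (rows, grouped by role) in each library (columns, DTG left of DMSO), as log2 CPM with TMM scaling minus the mean of the 3 DMSO libraries. Every DTG cell is above 0, with Psmd14, Nfe2l1 and Psmc2 darkest, and DMSO replicate 3 is pale blue in most rows.

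The 7 α-ring genes changed by similar amounts. Their products form the gated entrance of the core and have no proteolytic site. All 7 rose, with a median log2 fold change of 0.43 and an SD between subunits of 0.07. The median SE of a single subunit was also 0.07. That SE includes shifts between libraries that the subunits share, such as DMSO replicate 2, the highest of its group for all 7. The SD and the SE therefore do not measure the same spread. Psma1 had the largest change and the smallest p of the ring, at 189, 180.5 and 193 CPM with DTG, against 123, 133 and 126 CPM with DMSO. The lowest DTG library was well above the highest DMSO library (log2 fold change 0.56 ± 0.07 SE, adjusted p = 0.000107). The other 6 had log2 fold changes of 0.37 for Psma2, 0.45 for Psma3, 0.47 for Psma4, 0.36 for Psma5, 0.43 for Psma6 and 0.36 for Psma7. Psma5 and Psma7 were the ones that did not pass with library-size scaling, at log2 fold changes of 0.19 (adjusted p = 0.0674) and 0.19 (adjusted p = 0.0883).

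All 7 β-ring genes rose too, with a median log2 fold change of 0.57 and a wider spread (SD 0.13). The 3 subunits with proteolytic sites were among them. Psmb5, which cuts after hydrophobic residues and is the main target of proteasome inhibitors, was at 77.9, 85.1 and 85.0 CPM with DTG, against 58.5, 59.0 and 46.0 CPM with DMSO (log2 fold change 0.60 ± 0.10 SE, adjusted p = 0.000631). Psmb6, the caspase-like subunit, was at 102, 106 and 104 CPM with DTG, against 70.7, 73.7 and 59.4 CPM with DMSO (log2 fold change 0.62 ± 0.09 SE, adjusted p = 0.000237). It had the largest change and the smallest p of the ring. Psmb7, the trypsin-like subunit, was at 149.5, 145 and 145 CPM with DTG, against 110.1, 123 and 102 CPM with DMSO (log2 fold change 0.39 ± 0.08 SE, adjusted p = 0.00253). In each of the 3 the DTG libraries lay close together and above all DMSO libraries, while DMSO replicate 3 was the lowest library. Psmb2 (0.57), Psmb3 (0.57) and Psmb4 (0.60), which carry no active site, changed by about as much on the log2 scale as Psmb5. Psmb1, another subunit without an active site, had the smallest change of the ring at 0.28 ± 0.09 SE (adjusted p = 0.0175), and it did not pass with library-size scaling (adjusted p = 0.302). DMSO replicate 3 was the lowest of its group for all 7 β-ring genes, and DMSO replicate 2 the highest.

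Psmb5 is shown with the bases upstream of its start because it is a catalytic subunit whose window holds a match to the antioxidant response element core, the kind of site that NRF1 and its relatives bind. The window is chr14:54617996-54618245 of GRCm38.p6 on the minus strand, from RefSeq, and ends at the base before the transcript start. Capitals mark the match to TGACNNNGC, which lies 47 bases before the start.
Psmb5: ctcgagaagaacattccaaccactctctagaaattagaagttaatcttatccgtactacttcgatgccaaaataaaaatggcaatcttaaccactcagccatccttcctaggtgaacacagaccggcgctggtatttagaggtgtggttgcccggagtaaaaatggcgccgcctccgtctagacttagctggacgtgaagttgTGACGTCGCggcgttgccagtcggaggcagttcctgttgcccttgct
Searched on both strands in the 250 bases before the start, this core occurred in 4 of 35 windows of the proteasome genes (11.4%), those of Psmb5, Psmb6, Psmc6 and Psmd12. It occurred in 10.2% of all 32851 RefSeq windows and in 11.6% of the 13159 windows of genes tested here. RefSeq windows were at hand for 29 of the 36 genes.

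The immunoproteasome, in which cytokine-induced subunits replace the 3 catalytic ones, went the other way. Psmb8, the counterpart of Psmb5, was at 4.31, 4.45 and 5.27 CPM with DTG and 9.10, 9.83 and 8.01 CPM with DMSO (log2 fold change −0.94 ± 0.13 SE, adjusted p = 0.000153). Psmb9, the counterpart of Psmb6, was at 2.69, 2.90 and 3.38 CPM with DTG and 7.23, 9.20 and 6.12 CPM with DMSO (log2 fold change −1.33 ± 0.17 SE, adjusted p = 9.70e-05), and Psmb10, the counterpart of Psmb7, had a log2 fold change of −0.44 ± 0.13 SE (adjusted p = 0.0149), with overlapping groups. Psmb10 did not pass without DTG replicate 2 (adjusted p = 0.0594), DTG replicate 3 (0.0666) or DMSO replicate 2 (0.0738). Within a library, the ratio of the constitutive gene to its counterpart was higher with DTG for each pair. The ratio of Psmb5 to Psmb8 counts was 18.1, 19.1 and 16.1 in the DTG libraries and 6.43, 6.00 and 5.74 in the DMSO libraries. The ratio of Psmb6 to Psmb9 was 37.7, 36.7 and 30.9 with DTG and 9.78, 8.01 and 9.70 with DMSO. For Psmb7 to Psmb10 it was 6.87, 8.14 and 8.23 with DTG and 4.19, 4.15 and 4.74 with DMSO. The groups did not overlap for any of the 3 ratios, which need no scaling between libraries. The direction of each ratio restates the fold changes of its genes, so the ratios are given as a description. An exact two-sided permutation test of 3 against 3 libraries cannot go below p = 0.1, so no test of a ratio was made.

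**Figure D2:**
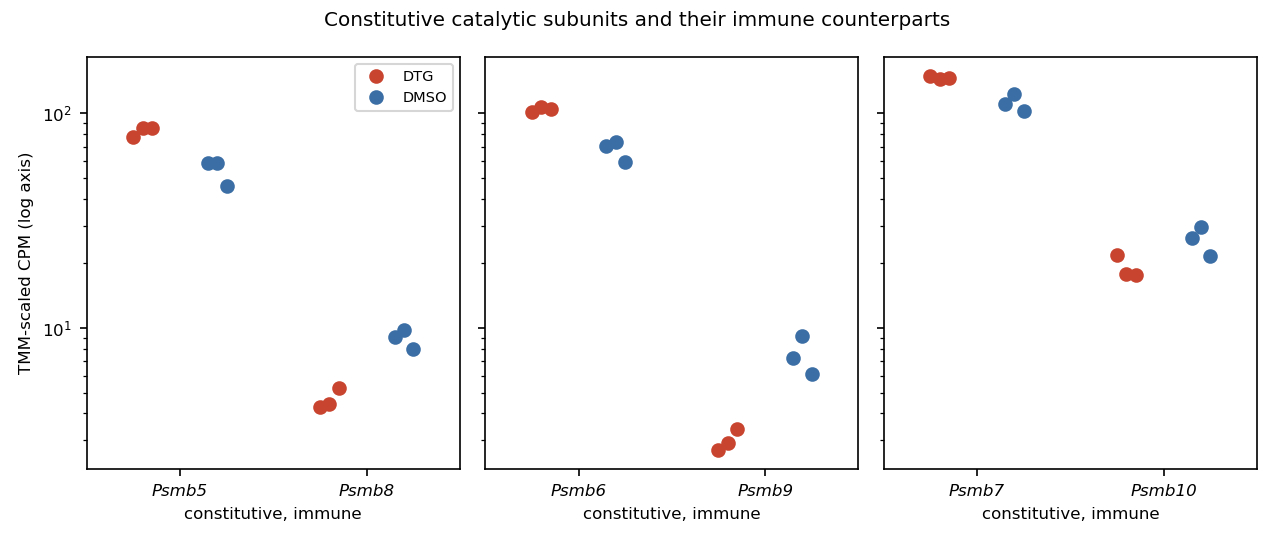
Points give the CPM with TMM scaling (log axis) of the 3 constitutive catalytic subunits and of their immunoproteasome counterparts in each library, DTG left of DMSO. Psmb5, Psmb6 and Psmb7 are higher in the DTG libraries, and Psmb8 and Psmb9 are lower.

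The 6 ATPases form the ring that unfolds a substrate and pushes it into the core. All 6 rose under both scalings, with a median log2 fold change of 0.58 with TMM and 0.41 with library-size scaling. Psmc2 had the largest change, at 252, 293 and 296 CPM with DTG, against 166, 179 and 160.5 CPM with DMSO (log2 fold change 0.73 ± 0.09 SE, adjusted p = 6.09e-05). DTG replicate 1 was clearly the lowest of the DTG libraries for Psmc2, and the log2 fold change was 0.83 within the P4 libraries and 0.57 within the P5 libraries. Psmc6 had the smallest p of the ring, at 112, 109.8 and 116 CPM with DTG, against 66.6, 69.4 and 76.6 CPM with DMSO (log2 fold change 0.67 ± 0.08 SE, adjusted p = 5.50e-05). The other log2 fold changes were 0.63 for Psmc5, 0.52 for Psmc1, 0.48 for Psmc4 and 0.38 for Psmc3. The summed ATPase counts divided by the summed α-ring counts were 0.844, 0.922 and 0.869 in the DTG libraries and 0.803, 0.787 and 0.793 in the DMSO libraries. This ratio was thus higher in every DTG library, with group means 0.14 apart on the log2 scale. It was made after the values were seen and its direction restates the fold changes.

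The 3 non-ATPase genes of the base rose, with a median log2 fold change of 0.41. Psmd2, a large scaffold on which shuttle factors and substrates dock, was at 531, 526 and 521 CPM with DTG, against 385, 393 and 370.4 CPM with DMSO (log2 fold change 0.46 ± 0.07 SE, adjusted p = 0.000308). The 3 DTG libraries lay close together and far above the DMSO libraries. Psmd4, a ubiquitin receptor, had a log2 fold change of 0.41 ± 0.07 SE (adjusted p = 0.000711). Psmd1, the other large scaffold, had 0.30 ± 0.07 SE (adjusted p = 0.00338), and it did not pass with library-size scaling (adjusted p = 0.114).

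The lid held both the largest and the smallest change of the 36 genes. Of its 8 genes 7 rose, with a median log2 fold change of 0.47, and the SD between its genes was 0.24. Psmd14, the metalloprotease that cuts the ubiquitin chain off the substrate as it enters the ATPase ring, was at 162, 185 and 191 CPM with DTG, against 87.0, 92.8 and 93.2 CPM with DMSO. Its means were 179 ± 15.3 CPM with DTG and 91.0 ± 3.44 CPM with DMSO (SD, n = 3 each), a 1.97-fold difference, and DTG replicate 1 was the lowest DTG library. The log2 fold change was 0.98 ± 0.08 SE (adjusted p = 7.30e-06), with 0.81 under library-size scaling, 1.11 within P4 and 0.80 within P5. Of all genes tested, 6.70% had a larger log2 fold change. Psmd7, the inactive partner that pairs with Psmd14, had a log2 fold change of 0.54 ± 0.07 SE (adjusted p = 0.000122).

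Psmd8, a scaffold subunit of the lid, was at 142, 158 and 156 CPM with DTG, against 136, 138 and 118 CPM with DMSO. With TMM scaling its DTG libraries were all above its DMSO libraries, though DTG replicate 1 only narrowly (log2 fold change 0.22 ± 0.09 SE, adjusted p = 0.0505). With library-size scaling the groups overlapped, at 136, 148 and 147 CPM with DTG and 145, 147 and 124 CPM with DMSO, and DTG replicate 1 was below 2 of the 3 DMSO libraries. In edgeR or DESeq2, Psmd8 passed with RLE factors (adjusted p = 0.0377), with DESeq2 (adjusted p = 0.0271), with no filter on low counts (adjusted p = 0.0437), without DTG replicate 1 (adjusted p = 0.0109) and with libraries of one name number summed (adjusted p = 0.0330). Over all alternatives its adjusted p ran from 0.0109 to 0.655. Psmd13, another scaffold subunit, had the next smallest change at 0.24 ± 0.07 SE (adjusted p = 0.0157). It did not pass with library-size scaling (adjusted p = 0.444), with upper-quartile factors (0.107) or without DMSO replicate 1 (0.0517). The other scaffold subunits had log2 fold changes of 0.54 for Psmd3, 0.50 for Psmd11, 0.44 for Psmd12 and 0.39 for Psmd6.

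The lid genes can be set against each other within a library, free of scaling. Psmd14 counts divided by the summed counts of the other 7 lid genes were 0.164, 0.179 and 0.184 in the DTG libraries and 0.112, 0.118 and 0.128 in the DMSO libraries. Psmd8 counts divided likewise were 0.141, 0.149 and 0.146 in the DTG libraries and 0.187, 0.188 and 0.168 in the DMSO libraries. Both genes were picked for the size of their change, so the direction of these shares restates the fold changes and is given as a description. The ratio of Psmd14 to Psmd7 was 1.02, 1.21 and 1.21 with DTG and 0.833, 0.818 and 0.889 with DMSO. These ratios compare the same pair of transcripts between libraries and do not rank the genes by level, because longer transcripts collect more reads.

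The upstream windows of Psmd14 and Psmd8 are shown because these are the lid genes with the largest and the smallest change. Both come from RefSeq and end at the base before the transcript start. The window of Psmd14 is chr2:61711444-61711693 of GRCm38.p6 on the plus strand, and that of Psmd8 is chr7:29180674-29180923 on the minus strand. No capitals are used, since none of the motifs searched occurred in either.
Psmd14: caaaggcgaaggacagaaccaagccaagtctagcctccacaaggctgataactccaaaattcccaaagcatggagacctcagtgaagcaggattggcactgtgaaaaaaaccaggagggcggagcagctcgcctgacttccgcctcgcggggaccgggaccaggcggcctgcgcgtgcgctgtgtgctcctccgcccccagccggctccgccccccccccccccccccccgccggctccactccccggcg
Psmd8: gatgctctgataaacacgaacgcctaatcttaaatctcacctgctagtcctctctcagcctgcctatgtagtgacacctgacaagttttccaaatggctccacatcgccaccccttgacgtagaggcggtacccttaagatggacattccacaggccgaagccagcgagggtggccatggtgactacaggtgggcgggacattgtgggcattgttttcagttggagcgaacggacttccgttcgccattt
The window of Psmd14 was 66.8% G and C, and that of Psmd8 was 52.8%. The other motifs searched, on both strands, were the ER stress response element (CCAAT and CCACG with 9 bases between them), the XBP1 and ATF6 core TGACGTGG, the C/EBP-ATF core TGATGNAA and the ETS core CCGGAAG. The lack of a match says only that these letters are not in these windows.

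**Figure D3:**
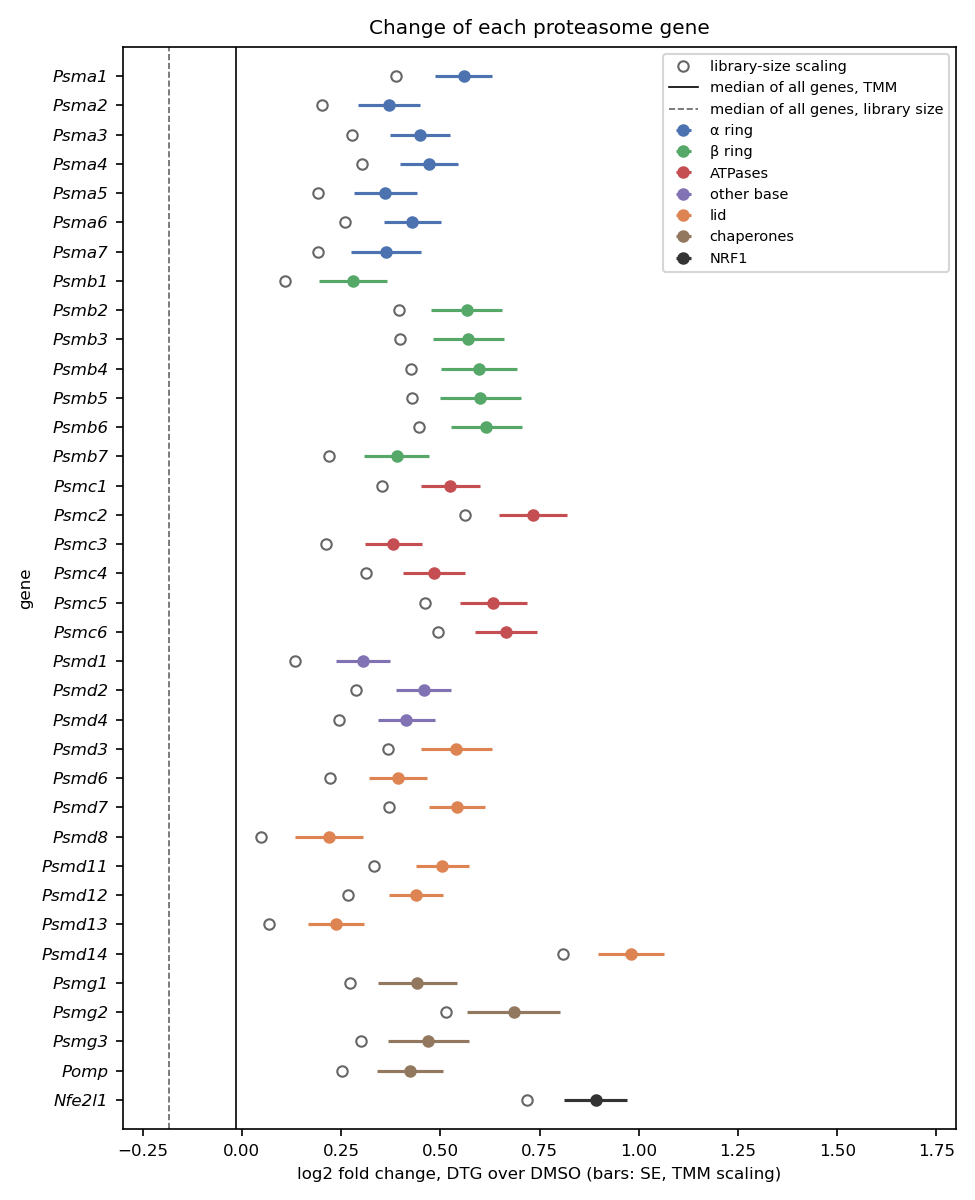
Log2 fold change (DTG over DMSO) of each gene with its SE, coloured by role, with TMM scaling (filled) and with library-size scaling (open); the vertical lines mark the median of all genes under each scaling. Psmd14 and Nfe2l1 lie farthest to the right, Psmd8, Psmd13 and Psmb1 nearest to 0, and all values are above 0 under both scalings.

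All 4 chaperones of core assembly among the 36 genes rose under both scalings, with a median log2 fold change of 0.46. Pomp, which escorts the joining of the 2 half-cores and is the first protein the new proteasome digests, was at 271, 286 and 294 CPM with DTG, against 216, 228 and 191 CPM with DMSO (log2 fold change 0.42 ± 0.08 SE, adjusted p = 0.00168). Psmg2, which pairs with Psmg1 to start the α ring, was at 16.5, 18.1 and 20.0 CPM with DTG, against 10.2, 12.8 and 10.9 CPM with DMSO (log2 fold change 0.68 ± 0.12 SE, adjusted p = 0.000642). In both genes the groups were apart, and DTG replicate 3 was the highest library. Psmg2 had the fewest counts of the 36, 472 to 966 in a library. Psmg1 had a log2 fold change of 0.44 ± 0.10 SE (adjusted p = 0.00360), and Psmg3, which acts at the same step with Psmg4, had 0.47 ± 0.10 SE (adjusted p = 0.00291). Psmg4 is not among the 36 and was counted with a surrounding list. In edgeR's quasi-likelihood test it had 0.35 ± 0.14 SE and did not pass (adjusted p = 0.0616), nor with library-size scaling (0.320). It did not pass under 13 of 18 alternatives.

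Nfe2l1 had the second largest change of the 36. It was at 897, 1026 and 975 CPM with DTG, against 537, 519 and 507 CPM with DMSO. Its means were 966 ± 65.1 CPM with DTG and 521 ± 15.2 CPM with DMSO (SD, n = 3 each), a 1.85-fold difference with no overlap (log2 fold change 0.89 ± 0.08 SE, adjusted p = 9.93e-06). The log2 fold change was 0.72 with library-size scaling, 0.90 within P4 and 0.81 within P5, and 7.70% of all genes tested had a larger one. Nfe2l1 counts divided by the summed counts of the 31 structural subunits were 0.171, 0.191 and 0.178 in the DTG libraries and 0.139, 0.129 and 0.139 in the DMSO libraries. The direction of this ratio follows from the rank of Nfe2l1 among the fold changes. NRF1 activity is set largely by processing of the protein, which RNA-seq does not measure. Nfe2l2, which encodes the related factor NRF2, was at 314, 270.2 and 270.1 CPM with DTG and 362, 376 and 376 CPM with DMSO (log2 fold change −0.38 ± 0.08 SE, adjusted p = 0.00265). The ratio of Nfe2l1 to Nfe2l2 counts was 2.85, 3.80 and 3.61 with DTG and 1.49, 1.38 and 1.35 with DMSO.

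One of the 5 RefSeq windows of Nfe2l1 is shown because it was the only one of the 35 windows searched, from 29 of the 36 genes, with the XBP1 and ATF6 core TGACGTGG, a motif of the unfolded protein response. It is chr11:96829969-96830218 of GRCm38.p6 on the minus strand. Capitals mark the match, which reads on the other strand and lies 158 bases before this start.
Nfe2l1: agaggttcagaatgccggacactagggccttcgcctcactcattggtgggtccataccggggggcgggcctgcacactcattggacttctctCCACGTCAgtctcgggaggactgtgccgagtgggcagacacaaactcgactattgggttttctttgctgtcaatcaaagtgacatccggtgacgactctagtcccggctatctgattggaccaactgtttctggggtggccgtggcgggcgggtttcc
The core occurred in 1 of 35 windows of the proteasome genes (2.86%), in 0.563% of all windows and in 0.631% of the windows of genes tested. The ER stress response element occurred in none of the 35, in 0.113% of all windows and in 0.106% of the windows of genes tested. The C/EBP-ATF core occurred in 1 of the 35 (2.86%, Psmd13), in 3.45% of all windows and in 2.01% of the windows of genes tested. A match is a description of the letters and not evidence of binding.

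Between roles, the balance of the particle moved less than its total. The summed β-ring counts divided by the summed α-ring counts were 0.867, 0.921 and 0.868 with DTG and 0.893, 0.872 and 0.787 with DMSO, and the groups overlapped. The ratio of lid to α ring was 0.998, 1.08 and 1.01 with DTG and 1.02, 0.959 and 0.998 with DMSO, also with overlap. Summed over the base and lid genes, the regulatory particle stood to the core at 1.43, 1.48 and 1.43 with DTG and 1.41, 1.36 and 1.49 with DMSO. The chaperones stood to the core at 0.160, 0.167 and 0.165 with DTG and 0.167, 0.169 and 0.163 with DMSO. None of these 4 ratios separated the groups, while the ATPase ratio did. All were made after the values were seen. The direction of the ATPase ratio follows from the median log2 fold changes, 0.58 for the ATPases and 0.43 for the α ring. It is given as a description and was not tested. With 3 libraries a group, small shifts in the balance may be missed, and the size that could be detected was not estimated.

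**Figure D4:**
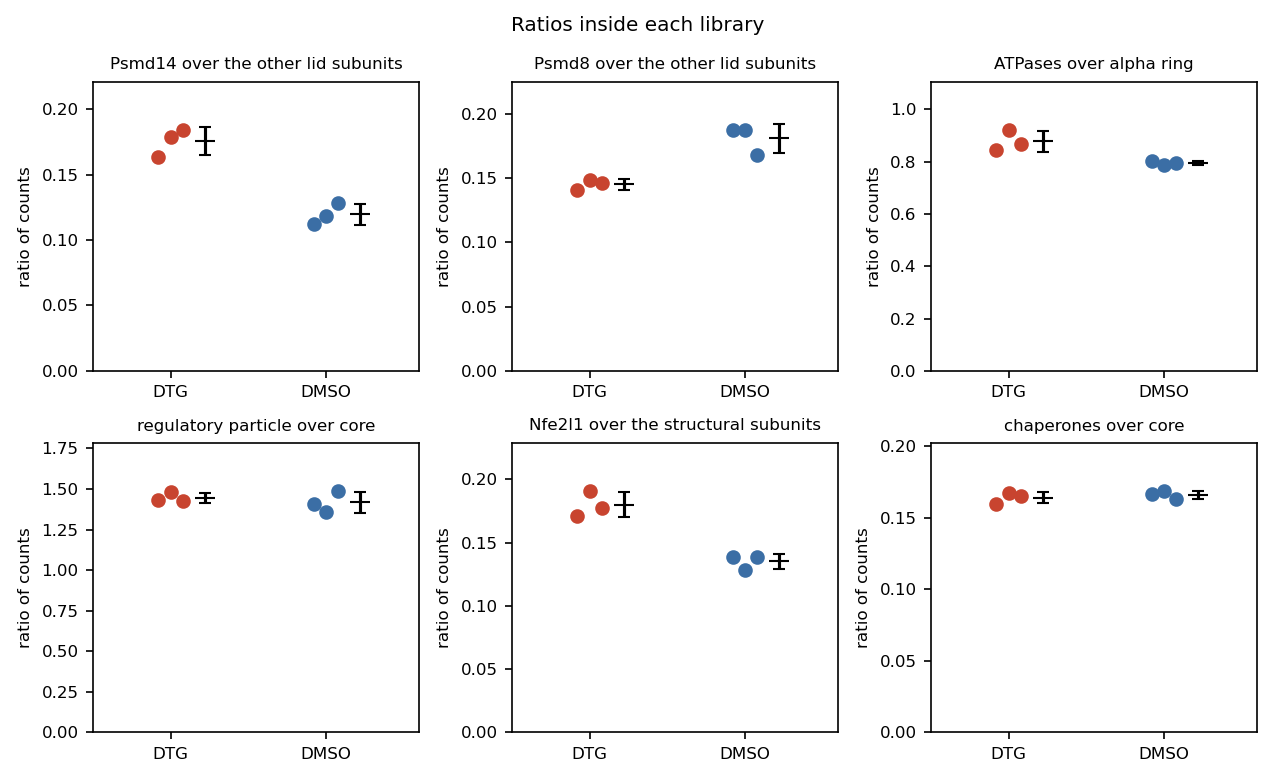
Ratios of counts inside each library (y axes from 0), 1 point per library, DTG left of DMSO, with the mean and SD of each group beside the points. The Psmd14, ATPase and Nfe2l1 ratios are higher in all DTG libraries, the Psmd8 ratio is lower, and the regulatory particle and chaperone ratios overlap.

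Per kilobase of transcript, the structural genes were not equal in RNA. Per kilobase of the principal transcript, the 31 structural genes had a median level of 108 CPM per kb with DTG and 75.8 CPM per kb with DMSO. Psma6 was the highest at 198 CPM per kb with DTG and 147 CPM per kb with DMSO, and Psma2 the lowest at 40.0 CPM per kb with DTG and 30.9 CPM per kb with DMSO. The highest level was 4.95 times the lowest with DTG and 4.75 times with DMSO. Across the 31 genes the log2 fold change was nearly unrelated to the per-length level with DMSO (Pearson r = −0.05, Spearman rho = −0.04) and weakly related to transcript length (r = −0.20, rho = −0.24). These values describe genes that share the same 6 libraries. The lengths are those of 1 annotated transcript a gene, the longest among those ranked equal. It was 2911 bases for Psma2 and 1042 bases for Psma6. The place of Psma2, the spread and the relation to length depend on that choice, which was not varied.

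The surrounding lists are read against the 27.4% of all genes tested that rose and the 29.3% that fell with TMM scaling. With library-size scaling these shares are 18.0% and 40.6%. Nothing is particular to the lists at shares near those of the same scaling. Of 6 other regulatory particle genes and assembly chaperones tested, 3 rose and none fell, with a median log2 fold change of 0.27. They include the core assembly chaperone Psmg4, given above. With library-size scaling none passed in edgeR's quasi-likelihood test (median 0.10), with 0 at an unadjusted p under 0.05. DESeq2 with its own scaling called 4 of the 6. Psmd5, a chaperone of the base, had 0.31 ± 0.08 SE (adjusted p = 0.00584), and the ubiquitin receptor Adrm1 had 0.30 ± 0.08 SE (adjusted p = 0.00734). Sem1, a small lid subunit, had 0.24 ± 0.09 SE (adjusted p = 0.0392) and did not pass without DTG replicate 2 (0.0752), DTG replicate 3 (0.0925), DMSO replicate 1 (0.0695) or DMSO replicate 3 (0.0769), with the P tag as a term (0.0713), with upper-quartile factors (0.185) or with library-size scaling (0.545). Of the 5 alternative caps and inhibitor, 1 rose and 1 fell, which is near the shares of all genes. Psme3, which encodes the nuclear cap PA28γ, was at 128, 155 and 155 CPM with DTG and 95.6, 96.6 and 96.6 CPM with DMSO (log2 fold change 0.60 ± 0.09 SE, adjusted p = 0.000255). Psme1, which encodes a subunit of the interferon-induced cap PA28, was at 52.7, 46.9 and 48.4 CPM with DTG and 61.2, 70.8 and 60.5 CPM with DMSO (log2 fold change −0.38 ± 0.09 SE, adjusted p = 0.00412).

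Of the 12 deubiquitinases, ligases and shuttle factors of the proteasome reported here, 8 rose and 4 did not pass (median log2 fold change 0.30). With library-size scaling 4 rose and 8 did not pass (median 0.13), where 18.0% of all genes tested rose. Zfand2a, a stress-induced factor that binds the regulatory particle, was at 199.9, 219.9 and 209.5 CPM with DTG and 115, 128 and 119.8 CPM with DMSO (log2 fold change 0.79 ± 0.08 SE, adjusted p = 1.63e-05). Rad23b, which carries ubiquitylated proteins to the proteasome, was at 191, 219 and 208 CPM with DTG and 118, 122 and 141 CPM with DMSO (log2 fold change 0.70 ± 0.09 SE, adjusted p = 0.000105). In both genes every DTG library was above every DMSO library. The ligase Ube3c had −0.01 ± 0.08 SE and did not pass.

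Of 11 genes tested that handle NRF1 or pair with it, 6 rose and 3 fell (median 0.28), against the same 27.4% and 29.3% of all genes. With library-size scaling 5 rose and 4 fell (median 0.11), against 18.0% and 40.6% of all genes. Sel1l and Syvn1, the adaptor and the ubiquitin ligase of ER-associated degradation, had the largest changes. Sel1l was at 1517, 2246 and 2094 CPM with DTG and 171, 171 and 181 CPM with DMSO (log2 fold change 3.49 ± 0.14 SE, adjusted p = 8.12e-08), and Syvn1 was at 314, 463 and 431 CPM with DTG and 59.3, 55.7 and 53.9 CPM with DMSO (log2 fold change 2.84 ± 0.14 SE, adjusted p = 2.38e-07). Vcp, the ATPase that pulls NRF1 out of the membrane, had 1.02 ± 0.08 SE (adjusted p = 5.32e-06), Ddi2, the protease that cuts NRF1, 0.43 ± 0.08 SE (adjusted p = 0.00131), and Mafk, a small Maf partner, 1.36 ± 0.13 SE (adjusted p = 1.54e-05); these 3 were named after their values were seen. Those that fell were Nfe2l2, given above, Ngly1, which removes sugars from NRF1 (log2 fold change −0.30 ± 0.09 SE, adjusted p = 0.0123), and Btrc, a ligase subunit that marks NRF1 for degradation in the nucleus (log2 fold change −0.22 ± 0.08 SE, adjusted p = 0.0316). Ngly1 did not pass without DTG replicate 2 (adjusted p = 0.0524) or DTG replicate 3 (0.0604), and Btrc did not pass when any library other than DMSO replicate 3 was left out (0.0733 to 0.139). The small Maf gene Maff had −0.11 ± 0.11 SE and did not pass. Nfe2l3 had 0 counts in all 6 libraries.

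The 4 genes for ubiquitin and its activation reported here rose (median log2 fold change 0.45). With library-size scaling 3 of them did (median 0.28), where 18.0% of all genes tested rose. Rps27a, which encodes ubiquitin fused to a ribosomal protein, had 0.50 ± 0.08 SE (adjusted p = 0.000582), and the activating enzyme Uba1 had 0.39 ± 0.07 SE (adjusted p = 0.00113). Ubiquitin genes share near-identical coding repeats, so counts of single ones are uncertain.

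**Figure D5:**
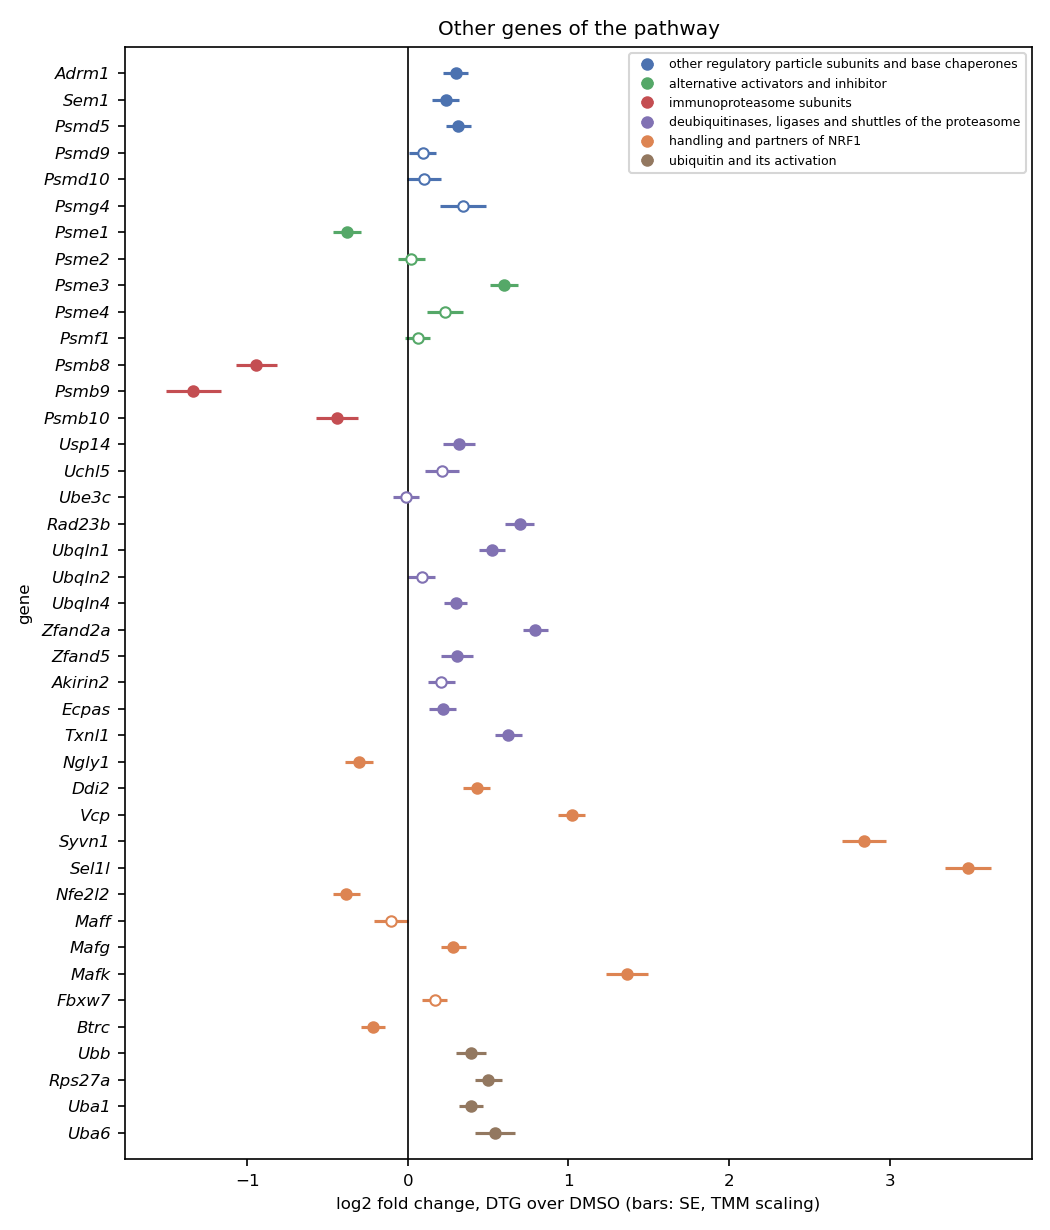
Log2 fold change (DTG over DMSO, TMM scaling) with SE of each reported gene of the 6 surrounding lists, by colour; filled circles passed the adjusted p threshold of 0.05 and open circles did not. The lists of caps and of NRF1 handling have genes that passed on both sides of 0, the immunoproteasome lies below it, and Sel1l and Syvn1 lie farthest above it.

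Genes outside the 36 with the most similar profile over the 6 libraries were Cdkn1a (Pearson r with the mean z-scored log2 CPM of the 36 genes 0.9986), Akr1b3 (0.9985), Mrps18a (0.9985), Cldnd1 (0.9983) and Slc25a5 (0.9983). They encode a cell-cycle inhibitor, an aldose reductase, a mitochondrial ribosomal protein, a claudin-domain protein and a mitochondrial ADP/ATP carrier. Cdkn1a was at 307, 318 and 316 CPM with DTG and 222, 234 and 207 CPM with DMSO, so its DMSO libraries kept the same order as the summed proteasome genes. Of 9184 genes with a symbol compared, 147 had r above 0.99. With 6 libraries in 2 groups, r is set mostly by the difference between the groups.

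Near copies could blur a few of these counts. Of the 36 genes, 10 had 1 or more annotated copies with at least 95% identity over 300 bases or more. Only 4 of these 10 had a copy in the count table, so the others could not be checked by the counts of their copies. Counts assigned to a copy or overlapping gene exceeded 1% of the gene's own counts for Psmd11 (3.46% with DTG and 5.84% with DMSO, for A730017L22Rik) and Psmd13 (6.32% with DTG and 9.42% with DMSO, for Sirt3, which shares an overlapping stretch with it). Whether the counting used strand is not given in the sources used here. Reads of the other copies that were counted to the parent gene cannot be told apart here. A difference between P4 and P5 in the response was not detectable: the smallest interaction adjusted p over the 36 genes was 0.498 in edgeR's quasi-likelihood test, 1 of the 36 had an unadjusted p under 0.05, and of all genes none passed, with 1351 at an unadjusted p under 0.05.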

How the data were processed

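Total RNA for 6 libraries was prepared with a stranded mRNA kit, per the labels' protocols, and the authors deposited a table of raw counts per Ensembl gene, with GRCm39 named as the genome build in the submitters' processing notes; no source used here names the aligner, the counter or its strand setting. The counts are whole numbers without normalization, one column per library. One DTG column is spelled DIG and was matched through the library name in its description. Symbols came from a gene name table (38606 of 43271 identifiers), and 132 of 133 list entries were matched; Paaf1 was not analysed here. Some genes of the shuttle and ubiquitin lists are not reported here, so the counts and medians of those lists cover part of them and do not give the direction of the whole list.

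Genes were kept with edgeR's filterByExpr by group, leaving 14101, and scaled by TMM. DTG was compared with DMSO with edgeR 4.0.16, using robust quasi-likelihood F-tests, with Benjamini-Hochberg adjustment over all genes and a threshold of 0.05. The SE is |log2 fold change|/√F. CPM are counts relative to the TMM-scaled library total, as mean ± SD over 3 libraries. Within-library ratios used raw counts. Per-length levels used GENCODE vM21 transcript lengths, and near copies were searched with blastn 2.17.0. RefSeq windows of GRCm38.p6 gave the sequences. Scripts were tested on simulated counts.

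The 36 genes and the surrounding lists were chosen with earlier results of these data known. All 36 are named; values in every library are given for the gene with the smallest p and that with the largest change in each role, for genes that did not pass, and for Nfe2l1, Pomp, Psmb5, Psmb6, Psmb7 and Psmd14. For each surrounding list the 2 genes with the smallest p and any gene against the majority are named, some of them with values in every library. The similar genes are the 5 with the highest r among those with a mean of at least 10 CPM. Alternatives were library-size, RLE and upper-quartile scaling, DESeq2 1.42.0, voom in limma 3.58.1, other filters, a non-robust fit, a threshold of 0.01, the replicate number or P tag as a term, the P4 and P5 libraries apart, and leaving out each library. The interaction with the P tag, the sums of libraries with one name number, the within-library ratios and the ETS core were added after seeing the data.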

Additional observations from a re-analysis of the deposited data

How the results depend on the processing

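None of the 36 genes changed direction under any of 18 alternatives. Psmd8 passed under 5 of them, and losses numbered 5 genes with library-size scaling, 2 with upper-quartile factors, 2 at a threshold of 0.01 (Psmb1 and Psmd13) and 1 without DMSO replicate 1 (Psmd13). Library-size scaling lowered the median log2 fold change to 0.30 for the 36 genes, 0.26 for the α ring, 0.40 for the β ring, 0.41 for the ATPases, 0.24 for the non-ATPase base genes, 0.30 for the lid and 0.29 for the chaperones, and the log2 ratio of summed levels to 0.36. It gave 0.10 for the other regulatory particle genes (0 higher), −0.11 for the caps, which reversed, 0.13 for the deubiquitinases, ligases and shuttles (4 higher), 0.11 for NRF1 handling, 0.28 for ubiquitin, and −0.18 for all genes (2536 higher, against 3860). Upper-quartile factors gave 0.38 for the 36 genes, 0.34 for the α ring, 0.49 for the ATPases, 0.32 for the base, 0.38 for the lid, −0.0310 for the caps, which reversed, 0.21 for the shuttle list (5 higher), 0.35 for ubiquitin and −0.11 for all genes. The median of all genes was 0.00583 with RLE factors, 0.00554 with DESeq2 and −0.034 within P4. Within P5 the base had 0.39 and ubiquitin 0.39.

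Leaving out each library gave medians of 0.53 to 0.65 for the ATPases, 0.38 to 0.47 for the base, 0.45 to 0.52 for the lid, 0.020 to 0.12 for the caps, 0.41 to 0.51 for ubiquitin and −0.015 to 0.0093 for all genes. Counts then ran over 1 to 2 caps higher, 5 to 10 of the shuttle list higher and 1 to 3 of NRF1 handling lower. The P tag as a term gave 2 caps higher. A threshold of 0.01 gave 5 of the shuttle list higher and 1 of NRF1 handling lower. With the libraries of one name number summed, an alternative chosen after seeing the data, 36 genes rose, the base had 0.45 and the shuttle list 5 higher. The cause was not tested.

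Libraries that share a replicate number did not deviate together (correlations of −0.27, 0.05 and −0.04), and no DTG library correlated best with its own number. With the replicate block the count of higher genes stayed at 35 of 36, and 3 calls in the surrounding lists were lost, those of Sem1 (adjusted p = 0.0600), Ecpas (0.0682) and Btrc (0.0798) in edgeR's quasi-likelihood test. This check used the replicate number of the titles. The number in the library names is shared by only 1 pair across the groups. A block on it would take the difference between DTG and DMSO from that pair alone, and none was fitted. With 3 libraries a group, changes near the size of Psmd8's sit at the threshold, and counting error is small at these depths.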

Other observations

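Searched over the same windows, the ETS core CCGGAAG, a motif chosen after the values were seen, occurred in 12 of 35 windows of the proteasome genes (34.3%), belonging to 11 genes: Pomp, Psma6, Psmc1, Psmc2, Psmc6, Psmd2, Psmd4, Psmd6, Psmd11, Psmd12 and Psmg1. It occurred in 6.91% of all RefSeq windows and in 13.2% of the windows of genes tested here. Psmc6 and Psmd12 held both this core and the antioxidant response element core. Neither Psmd14 nor Nfe2l1, the genes with the largest changes, had the ETS core in its windows.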
